A study of Mus musculus with 38 samples.

Results

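Livers of wild-type female mice on a C57BL/6 background were compared between calorie restriction (CR) and fasting (F) at 14 h, by sequencing of polyA RNA from whole liver. The comparison took in every gene measured in 6 libraries, 3 of CR livers and 3 of F livers, out of the 38 libraries of the series. Of 21954 genes in the deposited table, 13786 passed the filter on low counts and were tested. Another 3 libraries, from mice fed ad libitum (AL) and taken at 14 h, are given beside them as levels only. All 9 libraries share genotype, sex and background. The labels give neither the event from which hours were counted, nor the size and hour of the CR ration, nor the start of the fast. They give ages of 23, 24 and 25 months for CR, 26, 27 and 28 months for F and 20, 21 and 22 months for AL, but over the series these run from 5 to 44 and go up by 1 from sample to sample, so they were not used. Nothing in the labels says that the 3 libraries of a group came from separate mice, and p-values then measure the spread between libraries only.

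A liver that gets no food takes up fatty acids released by fat tissue, stores part of them as triglyceride in lipid droplets, and burns the rest in mitochondria and peroxisomes, with ketone bodies and newly made glucose as exports. The nuclear receptor PPARA, which binds fatty acids, turns on many genes of that programme, and glucagon and glucocorticoids turn on those of glucose production. After a meal, insulin and the SREBP transcription factors turn on the making of fatty acids and cholesterol. Mice on calorie restriction are commonly given their food as a single daily meal and then go without until the next, so their livers meet both states each day. The title of the study sets the fat that collects in a fasted liver against calorie restriction, circadian clocks and fasting that recurs on schedule.

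The libraries are called by group and replicate, as CR 1 or F 2. Total expected counts were 24206404, 26927018 and 26048152 in CR livers, 19427097, 17954145 and 18217536 in F livers, and 22068985, 21393125 and 20215003 in AL livers. CR 3 stood apart from its own group. Its log counts correlated at 0.953 to 0.956 with CR 1 and CR 2, whereas CR 1 and CR 2 correlated at 0.978, and at 0.967 to 0.972 with the AL livers. The mean chi-square per gene between CR 3 and the other CR libraries was 243.3 and 238.8, against 57.36 between CR 1 and CR 2 and 29.15 to 57.03 among F livers. F 1 carried more RNA of pancreas enzymes: the 8 exocrine pancreas markers summed to 2.72, 3.92 and 16.8 CPM (counts scaled to the library total) in CR livers, against 54.6, 4.27 and 5.02 CPM in F livers. F 1 was also the highest F library for 741 (67.4%) of the genes called lower in CR livers. Hepatocyte markers were abundant in all libraries, with 12 of them summing to 162786, 183607 and 138802 CPM in CR livers, against 127308, 109358 and 113365 CPM in F livers, 3 called higher and 1 lower, and 1 higher and 0 lower without F 1. The deviation of each library from the mean of the series correlated with transcript length, with a Spearman rho over genes of 0.0951, -0.155 and -0.258 in CR livers, against 0.206, 0.259 and 0.252 in F livers. Results are therefore given with and without CR 3 and F 1 where these decide a call. Fewer cells of a type and less RNA per cell cannot be told apart in whole tissue.

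At an adjusted p under 0.05 in edgeR's quasi-likelihood test, 2354 genes (17.1% of those tested) differed, 1255 higher (9.10%) and 1099 lower (7.97%) in CR than in F livers. Of these, 1139 changed by at least 1 and 303 by at least 2 on the log2 scale. Without CR 3 the test called 1582 genes, 841 higher (6.11%) and 741 lower (5.38%), and 1374 of the 2354 kept their call. Without F 1 it called 1282, 748 higher (5.43%) and 534 lower (3.88%). The call held in each of the 6 fits that left out 1 library for 854 genes. The 3 CR and the 3 F libraries did not overlap for 4467 genes (32.4%), of which 2253 were called. Genes named for the size of their change were picked among those without overlap, so for them its absence is no added support. The median log2 fold change over all tested genes was 0.03, and -0.03 without CR 3. Fold changes fell with transcript length, with a Spearman rho of -0.30 over genes, and 1671 of the called genes kept their call with the length trend of each library removed. Pathways named below as higher or lower are so in the RNA of their genes only, since protein, flux and lipid content were not measured here. List counts below stand beside the shares of all tested genes, 17.1% called, 9.10% higher and 7.97% lower.

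**Figure D1:**
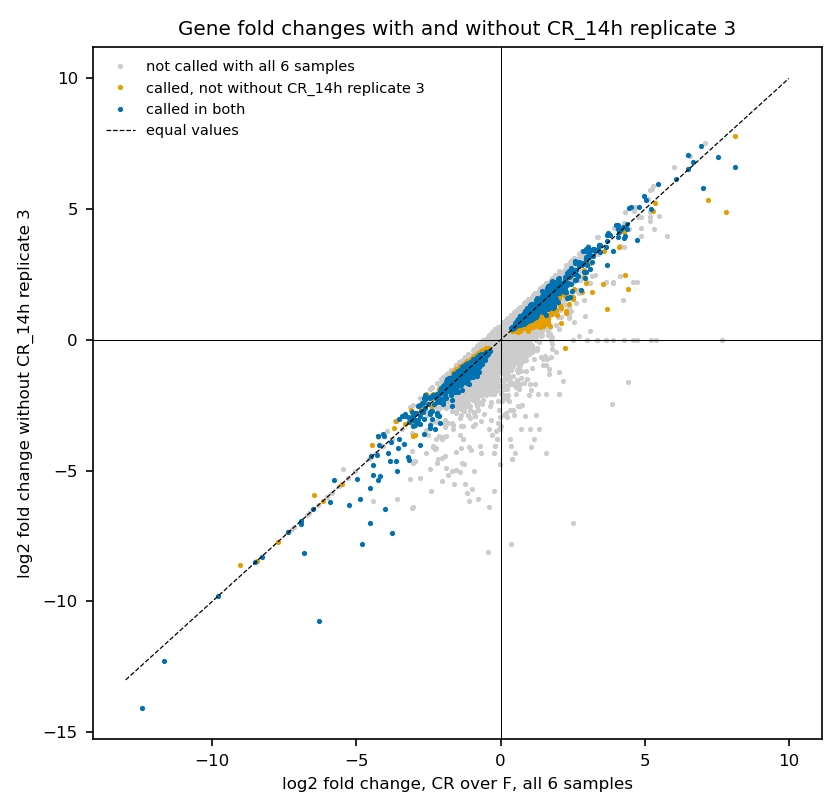
Log2 fold change of each tested gene in CR over F livers, with all 6 libraries on one axis and without CR 3 on the other. Points lie along the diagonal, which follows in part from the fits sharing every library but CR 3. Of the 2354 called genes, 1374 were called in both fits.

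At the RNA level, cholesterol synthesis was higher in CR livers as nearly a whole pathway. Of 10 tested genes of the mevalonate arm, which builds the isoprenoid precursor from acetyl-CoA, 9 rose and none fell, with a median log2 fold change of 3.14. Of 11 genes of the sterol arm, which closes the rings and trims them to cholesterol, 9 rose and none fell, with a median of 2.47. The same counts were reached without CR 3. Fdps (chr3:89093588-89101959, minus strand), the farnesyl diphosphate synthase, stood at 460.4, 496 and 429 CPM in CR livers, against 21.8, 30.5 and 20.1 CPM in F livers (log2 fold change 4.26 ± 0.43, adjusted p = 3.05e-07, where ± is the standard error). Each of the 3 CR livers was far above each of the 3 F livers, and AL livers were at 225, 441 and 477 CPM. Acat2, the thiolase at the start of the pathway, had the smallest p of the list, with 174, 163 and 130.2 CPM in CR livers, against 20.8, 29.1 and 21.2 CPM in F livers (2.72 ± 0.26, adjusted p = 1.09e-07). Mvd (chr8:122433601-122443422, minus strand), the last decarboxylase before isopentenyl diphosphate, had 54.4, 61.5 and 51.0 CPM in CR livers, against 1.49, 4.17 and 3.58 CPM in F livers (4.17 ± 0.55, adjusted p = 6.47e-06). Idi1 (chr13:8885501-8892451, plus strand), the isomerase that follows it, stood at 479.7, 505 and 424 CPM in CR livers, against 34.6, 39.7 and 33.1 CPM in F livers (3.71 ± 0.43, adjusted p = 1.29e-06). No CR and F library overlapped for any of these 4 genes.

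The genes Pmvk, Mvk and Fdft1, for the 2 mevalonate kinases and squalene synthase, rose by 2.89, 3.41 and 3.29 on the log2 scale. Ggps1, which takes farnesyl diphosphate away to geranylgeranyl diphosphate, was the only tested gene of the arm not called (-0.36 ± 0.36, adjusted p = 0.536). In the sterol arm, Lss, the cyclase that makes lanosterol, had 195, 116 and 117 CPM in CR livers, against 13.5, 18.5 and 19.3 CPM in F livers (3.06 ± 0.36, adjusted p = 1.39e-06). Sqle, the squalene epoxidase, had 159.5, 153 and 97.9 CPM in CR livers, against 9.60, 15.9 and 12.0 CPM in F livers (3.45 ± 0.55, adjusted p = 7.93e-05). Cyp51, Nsdhl, Msmo1, Dhcr7 and Sc5d rose by 3.23, 3.12, 3.21, 2.47 and 2.21. Ebp, the sterol isomerase, rose by 0.86.

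Windows of 300 bases, 250 before and 50 after the annotated start (RefSeq, GRCm38.p6), were found for 16 of the 21 tested cholesterol synthesis genes. The sterol element was searched as TCACNCCAC on both strands. It lay in the window of 1 of these 16 genes (6.25%), Hmgcs1, and of 156 of 10604 tested genes with a window (1.47%). Among the other lists searched, it lay in 3 of 32 PPARA target and peroxisomal genes (9.38%) and in none of the rest. Hmgcs1 encodes the synthase that makes HMG-CoA in the cytosol, and it had 885, 906 and 697 CPM in CR livers, against 75.8, 151 and 89.1 CPM in F livers (2.98 ± 0.49, adjusted p = 0.000125). Its stretch at chr13:119690174-119690262, plus strand, upstream of the start, is shown because it holds the letters searched for, in capitals, in a gene that rose. A match of letters is a description and not a bound site.
Hmgcs1: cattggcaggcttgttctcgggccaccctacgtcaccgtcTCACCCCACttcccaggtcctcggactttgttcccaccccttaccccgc

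The genes around the pathway moved in both directions, with 4 of 15 tested members of the sterol sensing and uptake list higher and 3 lower. The paired Insig genes, whose proteins hold the SREBP escort in the endoplasmic reticulum, went opposite ways. Insig1 had 533, 715 and 857 CPM in CR livers, against 47.9, 108 and 78.2 CPM in F livers (3.17 ± 0.41, adjusted p = 4.2e-06). Insig2 had 201, 161 and 147 CPM in CR livers, against 1125, 535 and 513 CPM in F livers (-2.09 ± 0.35, adjusted p = 0.000171). Neither pair of groups overlapped. Stard4, a sterol carrier, rose by 1.76, and Mylip, a ubiquitin ligase, fell by 1.46. Srebf2, the factor that drives cholesterol synthesis, had 126, 104 and 62.3 CPM in CR livers, against 43.0, 52.4 and 40.0 CPM in F livers (1.11 ± 0.32, adjusted p = 0.0147), a call lost without CR 1, F 1 or F 3 (adjusted p = 0.06 to 0.0729).

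**Figure D2:**
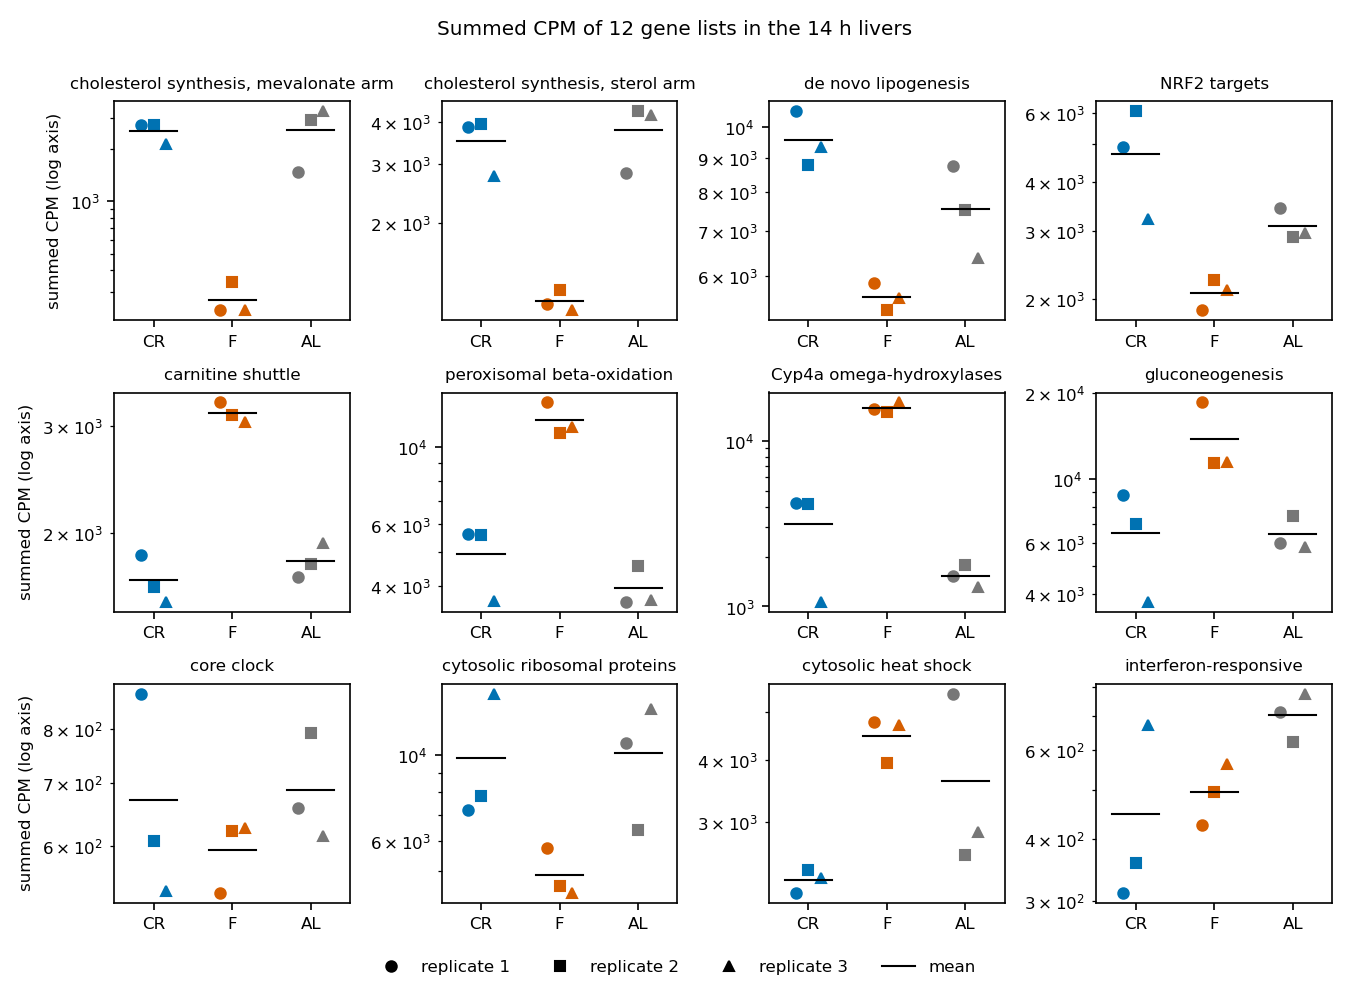
Summed CPM of the members of 12 gene lists in each library (log axis) for CR, F and AL livers, with a bar at the group mean. Both cholesterol lists are higher in every CR library than in every F library, and the carnitine shuttle and peroxisomal lists are lower.

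RNA of fatty acid synthesis genes was also higher in CR livers, though fewer of these genes held up without single libraries. Of 21 tested genes of de novo lipogenesis, 9 rose and 2 fell (median 1.42), with 7 and 1 called without CR 3 and 6 higher and 1 lower without F 1. Srebf1, the factor that drives the pathway under insulin, had 317, 507 and 422 CPM in CR livers, against 33.3, 56.3 and 44.3 CPM in F livers (3.22 ± 0.41, adjusted p = 4.2e-06). Acly, which splits citrate into acetyl-CoA, had 371, 247 and 350.1 CPM in CR livers, against 55.1, 86.3 and 89.1 CPM in F livers (2.07 ± 0.35, adjusted p = 0.000169). Acss2, which makes acetyl-CoA from acetate, had 525, 413 and 412 CPM in CR livers, against 51.2, 68.5 and 52.6 CPM in F livers (2.97 ± 0.46, adjusted p = 5.88e-05). The 3 genes did not overlap between groups. Slc25a1, the citrate carrier, rose by 1.48 and Aacs, the acetoacetyl-CoA synthetase, by 3.10. Fasn, the fatty acid synthase, had 485, 482 and 583 CPM in CR livers, against 106, 182 and 148 CPM in F livers (1.83 ± 0.48, adjusted p = 0.00813) but 1.65 with adjusted p = 0.0552 without F 1. Scd1, the stearoyl-CoA desaturase, had 5717, 4033 and 4438 CPM in CR livers, against 1821, 1321 and 1487 CPM in F livers without passing the test (1.62 ± 0.65, adjusted p = 0.0816). Elovl2, which lengthens polyunsaturated fatty acids, fell by 1.2. Pnpla3, a lipase of the lipid droplet that is induced by feeding, was far highest in CR 3, with 2.46, 1.31 and 27.8 CPM in CR livers, against 0.32, 0.110 and 1.01 CPM in F livers (4.43 ± 1.31, adjusted p = 0.0185). Its log2 fold change was 1.94 with adjusted p = 0.361 without CR 3, 4.21 with adjusted p = 0.082 without F 1 and 3.97 with adjusted p = 0.0698 without F 2. Mlxipl, the carbohydrate-sensing factor ChREBP, was likewise highest in CR 3, with 181, 85.6 and 420.3 CPM in CR livers, against 55.6, 83.3 and 86.2 CPM in F livers, and its call was lost without CR 3, F 1, F 2 or F 3 (adjusted p = 0.0539 to 0.298).

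Genes for holding fat in droplets were lower in CR livers. In the list of droplet coat and fusion proteins, 6 of 13 tested members fell and 1 rose (median -0.76), with 4 and 1 without CR 3 and 0 higher and 4 lower without F 1. Cidec (chr6:113424634-113435760, minus strand), which fuses droplets, had 0.339, 0.158 and 0.266 CPM in CR livers, against 167, 23.2 and 47.9 CPM in F livers (log2 fold change -8.26 ± 1.12, adjusted p = 8.86e-06, and -7.10 with adjusted p = 9.44e-05 without F 1). F 1 was the highest of the F livers, yet the lowest F library was far above any CR library, and AL livers were at 0.857, 0.474 and 0.600 CPM. Plin2, the droplet coat of hepatocytes, had 277, 266 and 296 CPM in CR livers, against 1647, 799 and 909.9 CPM in F livers (-2.0 ± 0.27, adjusted p = 7.55e-06). Fitm2, which helps droplets form, had 39.8, 40.6 and 26.0 CPM in CR livers, against 216, 111 and 123 CPM in F livers (-2.08 ± 0.30, adjusted p = 1.98e-05). G0s2, which blocks the triglyceride lipase ATGL, had 13.1, 17.6 and 58.2 CPM in CR livers, against 104, 227 and 224 CPM in F livers (-2.64 ± 0.69, adjusted p = 0.00858, and -3.59 with adjusted p = 0.00436 without CR 3). None of the 4 overlapped between groups. The coat Plin5 had 46.0, 34.7 and 20.7 CPM in CR livers, against 167, 86.9 and 115 CPM in F livers (-1.87 ± 0.53, adjusted p = 0.0155), and the coat Plin4 had 1.78, 2.45 and 1.75 CPM in CR livers, against 40.9, 6.74 and 12.3 CPM in F livers (-3.32 ± 0.95, adjusted p = 0.0158, and -2.25 with adjusted p = 0.143 without F 1). These calls were lost, for Plin5 without CR 3 or F 1 (adjusted p = 0.0782 to 0.0785) and for Plin4 without CR 3 or F 1 (adjusted p = 0.0581 to 0.143).

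Triglyceride making and breakdown were mixed. Gpat4, which adds the first acyl chain on the way to triglyceride, fell by 1.26. Lpin1, which removes the phosphate, had 103, 68.4 and 36.4 CPM in CR livers, against 670.5, 290.1 and 481 CPM in F livers (-2.79 ± 0.70, adjusted p = 0.00594). Dgat2, the last step, had 553, 651 and 400.0 CPM in CR livers, against 285, 313 and 299 CPM in F livers (0.84 ± 0.24, adjusted p = 0.0145), a call lost without CR 2 or F 1 (adjusted p = 0.0605 to 0.0845). In all, 3 of the 12 tested genes of triglyceride synthesis fell and 1 rose, with 0 higher and 2 lower without CR 2 or F 1. In the lipolysis list 2 of 12 fell and 2 rose. Mgll, the monoacylglycerol lipase, had 100, 145 and 108 CPM in CR livers, against 456, 430.1 and 406 CPM in F livers (-1.87 ± 0.31, adjusted p = 0.00014), with each F liver well above each CR liver. Ces1g, a carboxylesterase linked to lipid handling, had 472, 430.1 and 289.9 CPM in CR livers, against 198, 111 and 131 CPM in F livers (1.44 ± 0.29, adjusted p = 0.000876). Pnpla2, which encodes ATGL, had 99.7, 95.4 and 52.2 CPM in CR livers, against 375, 174 and 228 CPM in F livers (-1.65 ± 0.42, adjusted p = 0.00626) but -1.29 with adjusted p = 0.0592 without F 1. Among 17 genes of fatty acid uptake and activation, 4 fell and 2 rose. Slc27a1, a fatty acid transporter better known from muscle and fat, stood at 7.17, 8.39 and 8.10 CPM in CR livers, against 76.9, 61.1 and 58.2 CPM in F livers (-3.05 ± 0.34, adjusted p = 6.48e-07). The acyl-CoA synthetases went opposite ways, Acsl1 falling by 0.96 and Acsl3 rising by 1.94. Cd36, a fatty acid receptor that PPARA and other receptors induce, had 154, 149 and 64.2 CPM in CR livers, against 154, 126 and 215 CPM in F livers (-0.43 ± 0.41, adjusted p = 0.509), with overlap.

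At the RNA level the carnitine shuttle, which takes acyl groups into mitochondria, was lower in CR livers from uptake to release. Of its 9 tested genes 6 fell and none rose (median -1.32), and the same 6 were called in each fit that left out 1 library. Slc22a5, the carnitine transporter of the cell surface, had 16.6, 14.8 and 12.4 CPM in CR livers, against 160.1, 79.4 and 91.2 CPM in F livers (-2.92 ± 0.40, adjusted p = 1.05e-05). Cpt1a, the gatekeeper of the liver, had 361, 242 and 181 CPM in CR livers, against 1081, 969.7 and 985 CPM in F livers (-1.95 ± 0.31, adjusted p = 6.52e-05). Cpt1b (chr15:89416405-89425863, minus strand), the form typical of muscle, had 1.15, 0.673 and 1.14 CPM in CR livers, against 31.1, 9.76 and 17.0 CPM in F livers (-4.28 ± 0.80, adjusted p = 0.000492). For all 3 the lowest F liver was above the highest CR liver. Cpt2, Slc25a20 and Crat, the inner-membrane transferase, the translocase and the acetyl transferase, fell by 1.32, 1.02 and 1.58.

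Mitochondrial beta-oxidation fell in 8 of 17 tested genes and rose in 1 (median -0.47), with 0 higher and 5 lower without CR 3. Acad11, an acyl-CoA dehydrogenase, had 390.1, 403 and 197 CPM in CR livers, against 786, 726 and 759.7 CPM in F livers (-1.20 ± 0.25, adjusted p = 0.00157), with no overlap. Decr1 and Eci2, which handle double bonds, fell by 0.84 and 1.01. Etfdh, which passes electrons to ubiquinone, fell by 1.03, and Hadhb, a subunit of the trifunctional protein, by 1.04. Acadm, the medium-chain dehydrogenase, had 407, 437 and 282 CPM in CR livers, against 769, 649.9 and 689.8 CPM in F livers (-0.91 ± 0.25, adjusted p = 0.0125), a call lost without CR 3 or F 1 (adjusted p = 0.0533 to 0.0778). Acadl and Acadvl were at -0.47 and -0.14 and were not called.

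Peroxisomal oxidation showed larger single changes. Of 15 tested genes 9 fell and none rose (median -0.72), with 6 called without CR 3 and 4 lower without F 1. Ehhadh, the peroxisomal bifunctional enzyme, had 600.1, 644 and 268 CPM in CR livers, against 3652, 2969 and 3299 CPM in F livers (-2.71 ± 0.34, adjusted p = 4.05e-06). CR 3 was its lowest library, and the groups did not overlap. Pex11a, which makes peroxisomes divide, had 53.6, 56.7 and 44.8 CPM in CR livers, against 343, 174 and 181 CPM in F livers (-2.17 ± 0.43, adjusted p = 0.000783). Abcd3, a transporter of the peroxisomal membrane, fell by 1.04.

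The omega-hydroxylases of the Cyp4a family, classical PPARA targets in rodents, fell in 4 of 10 tested members and rose in none (median -2.0), with 3 called without CR 3. Cyp4a31 (chr4:115563649-115579015, plus strand) had 18.2, 9.65 and 1.98 CPM in CR livers, against 149.8, 153 and 205 CPM in F livers (-4.09 ± 0.78, adjusted p = 0.000586, and -4.86 with adjusted p = 0.000981 without CR 1). Cyp4a10 had 1456, 1346 and 158 CPM in CR livers, against 6181, 5662 and 6368 CPM in F livers (-2.62 ± 0.68, adjusted p = 0.0081). Cyp4a14 had 2142, 2095 and 240.1 CPM in CR livers, against 8561, 8311 and 9692 CPM in F livers (-2.57 ± 0.73, adjusted p = 0.0143), but -2.06 with adjusted p = 0.0668 without CR 3. For all 3, CR 3 was several times below CR 1 and CR 2, and AL livers had 334, 353 and 270.1 CPM for Cyp4a14. These genes lie in a cluster of near-identical copies, so reads may be split among them. The core of the PPARA element, searched as GGNCANAGG on both strands, lay in the windows of 4 of 32 PPARA target and peroxisomal genes (12.5%), against 1117 of 10604 tested genes (10.5%). In the other lists searched its share ran from 5.88% of NRF2 targets to 8 of 23 clock and output genes (34.8%). Its one match upstream of the start of a called PPARA target or peroxisomal gene was in Cyp4a32, another of the cluster. Cyp4a32 had 12.1, 8.03 and 5.55 CPM in CR livers, against 44.8, 27.4 and 29.5 CPM in F livers (-1.99 ± 0.38, adjusted p = 0.000677). The stretch at chr4:115600713-115600801, plus strand is shown with the match in capitals.
Cyp4a32: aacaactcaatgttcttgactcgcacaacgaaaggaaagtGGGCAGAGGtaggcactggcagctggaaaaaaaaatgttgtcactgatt

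Other targets of PPARA moved the same way. In the list of hormones and regulators under PPARA, 10 of 12 tested genes fell (median -1.75), with 7 called without CR 3 and 8 without F 1. Fgf21 (chr7:45613886-45615490, minus strand), the fasting hormone of the liver, had 0.637, 0.949 and 3.16 CPM in CR livers, against 14.2, 15.0 and 29.6 CPM in F livers (-3.62 ± 0.79, adjusted p = 0.00213, and -4.61 with adjusted p = 0.00221 without CR 3). Ppara itself had 59.6, 38.8 and 34.4 CPM in CR livers, against 136, 106 and 144 CPM in F livers (-1.54 ± 0.34, adjusted p = 0.00235). Neither overlapped between groups. Txnip, which restrains glucose uptake, had 84.8, 46.2 and 50.4 CPM in CR livers, against 322, 214 and 232 CPM in F livers (-2.08 ± 0.31, adjusted p = 3.66e-05). Creb3l3, a membrane-bound factor of the fasting response, had 186, 191 and 182 CPM in CR livers, against 427, 382 and 378 CPM in F livers (-1.09 ± 0.21, adjusted p = 0.000559). Vnn1, a pantetheinase, showed no overlap at 28.2, 37.7 and 35.0 CPM in CR livers, against 286, 249.5 and 325 CPM in F livers (-3.09 ± 0.90, adjusted p = 0.0173), though the call was lost without CR 1, CR 2 or CR 3 (adjusted p = 0.0506 to 0.0551). Angptl4, which blocks lipoprotein lipase, had 81.9, 28.2 and 26.1 CPM in CR livers, against 244, 108 and 124 CPM in F livers (-1.81 ± 0.50, adjusted p = 0.0125, and -2.55 with adjusted p = 0.00282 without CR 1), a call lost without CR 2, CR 3 or F 1 (adjusted p = 0.068 to 0.101). Pdk4, the kinase that shuts pyruvate dehydrogenase in fasting, had 22.7, 10.4 and 12.3 CPM in CR livers, against 84.7, 29.8 and 33.2 CPM in F livers and did not pass the test (-1.70 ± 0.82, adjusted p = 0.157). Of the 9 tested genes in the ketone list 1 fell and 1 rose, which was Bdh2 (1.2 ± 0.30, adjusted p = 0.00567).

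The acyl-CoA thioesterases, which free fatty acids from CoA, fell in 5 of 12 members and rose in 1 (median -0.77). Acot1 and Acot2 are alike in sequence, so reads may be split between them. Acot1 had 64.7, 72 and 31.7 CPM in CR livers, against 392, 322 and 372 CPM in F livers (-2.69 ± 0.70, adjusted p = 0.00775). Acot2 had 12.2, 13.4 and 6.88 CPM in CR livers, against 89.4, 40.1 and 48.7 CPM in F livers (-2.46 ± 0.51, adjusted p = 0.00128). Acot5 had no count in CR livers, against 1.07, 0.274 and 0.694 CPM in F livers, which is at least 17.1-fold lower with a floor of 3 counts over the group. Among mitochondrial carriers, 8 of 19 tested were lower and 1 higher (median -0.58), with the same counts without CR 3, and 7 and 1 without F 1. Slc25a25, the ATP-magnesium carrier, had 21.1, 42.6 and 53.4 CPM in CR livers, against 658, 376 and 302 CPM in F livers (-3.51 ± 0.44, adjusted p = 4.09e-06). Slc25a22, a glutamate carrier, had 132, 108 and 161 CPM in CR livers, against 519, 435 and 576 CPM in F livers (-1.93 ± 0.22, adjusted p = 1.29e-06). Both groups were wide apart for these 2 genes. Slc25a51, the NAD carrier, fell by 1.52, Slc25a47, a liver-enriched carrier, by 1.64, and Ucp2, the uncoupling protein, by 1.68.

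**Figure D3:**
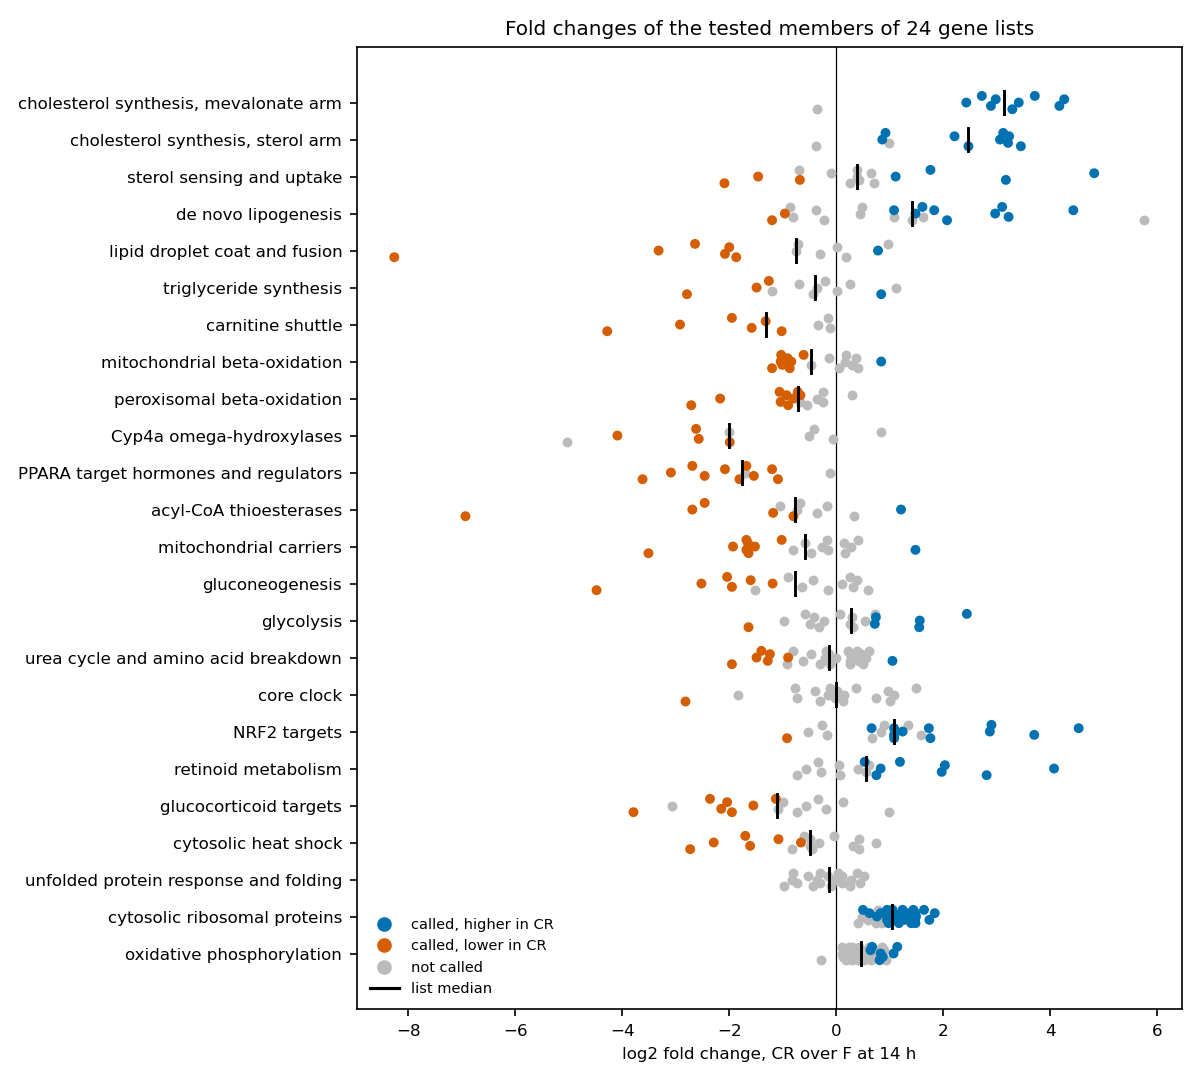
Log2 fold change in CR over F livers of each tested member of 24 gene lists, with members called higher in blue, called lower in orange and not called in grey, and a black bar at the list's median. The cholesterol lists lie to the right of 0, with medians of 3.14 and 2.47, and the carnitine shuttle and PPARA target lists to the left, with medians of -1.32 and -1.75.

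In the list for glucose production, 6 of 16 tested genes were lower and none higher (median -0.78), and the count was 6 without CR 3 and 4 without F 1. The lowest log2 fold change of the list, -4.48, was that of Ppp1r3g, a glycogen-targeting subunit whose call was lost without F 1. G6pc, the phosphatase that releases glucose, had 159.7, 54.8 and 93.6 CPM in CR livers, against 595, 574 and 594 CPM in F livers (-2.52 ± 0.48, adjusted p = 0.000562), and its F livers lay close together while CR 1 was the highest CR liver. Gpt2 and Got1 are aminotransferases that feed in carbon from amino acids. Gpt2 had 322, 426 and 159 CPM in CR livers, against 1284, 660.1 and 800.3 CPM in F livers (-1.60 ± 0.29, adjusted p = 0.000342). Got1 had 178, 199 and 159 CPM in CR livers, against 1135, 493 and 581 CPM in F livers (-2.04 ± 0.40, adjusted p = 0.000783). Pck1, the phosphoenolpyruvate carboxykinase, had 3222, 1196 and 477 CPM in CR livers, against 5694, 4077 and 4285 CPM in F livers without passing the test (-1.52 ± 0.62, adjusted p = 0.0873). Its CR libraries differed among themselves by more than those of G6pc, with CR 1 highest and CR 3 lowest. Ppp1r3g (chr13:35958839-35970388, plus strand), a glycogen-targeting subunit that fasting induces, was also far highest in F 1, with 2.12, 1.31 and 1.52 CPM in CR livers, against 99.0, 4.66 and 6.94 CPM in F livers (-4.48 ± 1.05, adjusted p = 0.00383) and -1.81 with adjusted p = 0.217 without F 1. Gk, which phosphorylates glycerol, had 122, 105 and 117 CPM in CR livers, against 284, 225 and 279 CPM in F livers (-1.19 ± 0.24, adjusted p = 0.000901). Gpd2, which oxidises glycerol phosphate, fell by 1.67. The cAMP element TGACGTCA lay in none of the 13 windows of gluconeogenic genes, against 3.33% of tested genes.

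RNA of genes for the use of sugar went the other way in part. Of 18 genes of the glycolysis list 5 rose and 1 fell (median 0.27), with 2 higher and 1 lower without F 1. Khk, which phosphorylates fructose, had 408, 439.9 and 381 CPM in CR livers, against 136, 145 and 141 CPM in F livers (1.55 ± 0.34, adjusted p = 0.0024), and the 3 libraries of each group lay close together. Pklr, the liver pyruvate kinase, had 183, 191 and 149.9 CPM in CR livers, against 30.4, 78.4 and 68.6 CPM in F livers (1.56 ± 0.42, adjusted p = 0.0106) but 1.25 with adjusted p = 0.0838 without F 1. Pfkfb2, which sets fructose bisphosphate, fell by 1.64, and Pdp2, the phosphatase of pyruvate dehydrogenase, by 1.2. In glycogen metabolism 2 of 14 tested genes rose and 1 fell. Gys2, the liver glycogen synthase, had 96.3, 95.8 and 73.1 CPM in CR livers, against 241, 129.6 and 146 CPM in F livers (-0.96 ± 0.34, adjusted p = 0.051). Pygl, the phosphorylase, had 439, 471 and 328 CPM in CR livers, against 206, 295 and 267 CPM in F livers (0.69 ± 0.29, adjusted p = 0.0983), neither of them called.

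Among 29 tested genes of amino acid breakdown, 6 fell and 1 rose, with 1 higher and 2 lower without F 1. Glud1, the glutamate dehydrogenase, had 1563, 1828 and 1771 CPM in CR livers, against 849, 812 and 824 CPM in F livers (1.05 ± 0.18, adjusted p = 0.000157), with narrow groups. Aass, of lysine breakdown, had 358, 330.3 and 184 CPM in CR livers, against 1216, 615 and 623 CPM in F livers (-1.49 ± 0.31, adjusted p = 0.00148). Oat, the ornithine aminotransferase, had 571, 897 and 537 CPM in CR livers, against 1848, 1702 and 1724 CPM in F livers (-1.40 ± 0.32, adjusted p = 0.00335). Tat, the tyrosine aminotransferase, was far higher in F 1 than in the other F livers, with 809, 1025 and 534 CPM in CR livers, against 6275, 1364 and 1537 CPM in F livers (-1.95 ± 0.46, adjusted p = 0.00403) and -0.88 with adjusted p = 0.173 without F 1. Cps1, the first step of the urea cycle, had 4861, 3428 and 1666 CPM in CR livers, against 6991, 5902 and 6023 CPM in F livers (-0.93 ± 0.38, adjusted p = 0.0941) and was not called. In methionine metabolism 4 of 15 genes fell and 1 rose, with 1 higher and 2 lower without CR 3 or F 1. Mat1a, which makes S-adenosylmethionine in the liver, had 3479, 4220 and 1712 CPM in CR livers, against 12623, 9066 and 10324 CPM in F livers (-1.77 ± 0.33, adjusted p = 0.000438). Pemt, which uses it to make phosphatidylcholine, had 342, 432 and 389 CPM in CR livers, against 163, 164 and 141 CPM in F livers (1.31 ± 0.17, adjusted p = 5.92e-06). The groups did not overlap for either gene.

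The core clock, the transcription loop that keeps daily time, gave few calls. Of 18 tested genes 1 fell and none rose (median 0.00), and of 11 clock outputs 1 rose and 2 fell (median -0.38), with none called without F 1 for the outputs. Arntl, which encodes BMAL1, had 27.6, 9.57 and 9.28 CPM in CR livers, against 4.11, 10.4 and 9.24 CPM in F livers (0.97 ± 0.67, adjusted p = 0.342), and CR 1 alone was high. Nr1d1, its repressor REV-ERB alpha, had 304, 163 and 151 CPM in CR livers, against 47.9, 126 and 121 CPM in F livers (1.07 ± 0.74, adjusted p = 0.348), with no overlap but F 1 far below the other F livers. The period genes Per1 and Per2 overlapped, Per2 at 3.65, 7.64 and 10.5 CPM in CR livers, against 12.2, 6.25 and 10.1 CPM in F livers (-0.39 ± 0.60, adjusted p = 0.709). AL livers stood higher for Per2, at 41.2, 15.5 and 15.3 CPM, and for Dbp, at 77.2, 172 and 161 CPM, against 34.2, 72.7 and 35.7 CPM in CR livers and 39.4, 38.5 and 27.5 CPM in F livers. The 1 called core gene was Bhlhe41 (DEC2), a repressor at low level with 0.170, 0.396 and 0.266 CPM in CR livers, against 1.01, 2.96 and 2.08 CPM in F livers (-2.83 ± 0.91, adjusted p = 0.0298), and its call was lost without CR 1, CR 2, CR 3, F 2 or F 3 (adjusted p = 0.0555 to 0.0905). Among outputs, Alas1, the first enzyme of haem, had -2.15 ± 0.63, adjusted p = 0.0172, Noct, the deadenylase nocturnin, had -1.16 ± 0.37, adjusted p = 0.0273 and Tspan4, a tetraspanin, had 1.01 ± 0.30, adjusted p = 0.0187. These calls were lost, for Alas1 without CR 3 or F 1 (adjusted p = 0.082 to 0.101), for Noct without CR 1, CR 2 or F 1 (adjusted p = 0.0674 to 0.248) and for Tspan4 without CR 2, F 1 or F 2 (adjusted p = 0.0505 to 0.066).

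Windows were found for 23 of the 29 tested clock and output genes. The E-box CACGTG, bound by the BMAL1 dimer, lay in 6 of them (26.1%), against 1188 of 10604 tested genes (11.2%), and the D-box TTATGNAA in 3, against 301 genes (2.84%). In the other lists searched, the share with an E-box ran from 5.88% to 30%, highest in the sterol sensing and uptake genes. The stretches of the 3 called clock and output genes with a match upstream of the start are given with the match in capitals, to set the letters beside the calls above. They lie at chr6:145865528-145865613, minus strand (E-box), chr7:141476289-141476374, plus strand (E-box) and chr3:51224313-51224400, plus strand (D-box, on the other strand).
Bhlhe41: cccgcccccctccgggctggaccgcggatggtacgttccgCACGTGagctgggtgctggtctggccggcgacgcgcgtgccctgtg
Tspan4: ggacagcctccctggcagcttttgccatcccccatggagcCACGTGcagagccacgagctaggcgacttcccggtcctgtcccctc
Noct: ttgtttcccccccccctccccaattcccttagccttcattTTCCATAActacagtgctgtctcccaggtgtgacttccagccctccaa

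Bile acid genes changed in 6 of 19 tested members, 3 higher and 3 lower. Nr0b2, the repressor SHP, had 54.7, 57.2 and 94.9 CPM in CR livers, against 3.95, 18.4 and 12.1 CPM in F livers (2.59 ± 0.49, adjusted p = 0.000581). Cyp8b1, the 12-alpha hydroxylase that sets the share of cholic acid, had 191, 143 and 48.0 CPM in CR livers, against 612, 872 and 827 CPM in F livers (-2.60 ± 0.61, adjusted p = 0.00368). Neither overlapped. Akr1d1, a reductase of the sterol ring, had 405, 381 and 245 CPM in CR livers, against 152, 135 and 92.7 CPM in F livers (1.44 ± 0.25, adjusted p = 0.000192). Cyp2c70, which makes muricholic acids in mice, had 412, 519 and 500.3 CPM in CR livers, against 165, 152 and 170.1 CPM in F livers (1.56 ± 0.34, adjusted p = 0.00231). Cyp7a1, the rate-limiting enzyme, had 27.2, 89.2 and 34.3 CPM in CR livers, against 209, 165 and 134 CPM in F livers and did not pass the test (-1.75 ± 0.70, adjusted p = 0.0805). The transporters Slco1a4 and Abcc3 fell by 1.23 and 0.93, calls lost for Slco1a4 without CR 3 (adjusted p = 0.0572) and for Abcc3 without CR 3 (adjusted p = 0.0821). Of 16 genes for apolipoproteins and VLDL, Mttp, which loads fat onto apolipoprotein B, was the only one called, with 292, 253 and 162 CPM in CR livers, against 578, 485 and 538 CPM in F livers (-1.18 ± 0.28, adjusted p = 0.00418), and the list had 0 higher and 2 lower without CR 1 and 1 higher and 1 lower without CR 3.

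Genes under NRF2, the factor that answers electrophiles, were higher in CR livers. Of 20 tested targets 11 rose and 1 fell (median 1.08), with 12 and 0 called without CR 3, 7 and 1 without F 1, and 6 higher and 1 lower without CR 2. Gstm3 (chr3:107963696-107969283, minus strand), a glutathione transferase, had 183, 171 and 72 CPM in CR livers, against 9.66, 10.9 and 12.3 CPM in F livers (3.70 ± 0.61, adjusted p = 0.00013), with CR 3 the lowest of its group but above all F livers. Gstm1, of the same enzyme class, had 2389, 3073 and 1475 CPM in CR livers, against 634, 697 and 718 CPM in F livers (1.76 ± 0.34, adjusted p = 0.000707). Gsta4, another, had 119, 126 and 45.8 CPM in CR livers, against 33.0, 26.6 and 28.0 CPM in F livers (1.73 ± 0.35, adjusted p = 0.000982). Osgin1, an oxidative stress response gene, had 275, 145 and 350.3 CPM in CR livers, against 12.9, 55.3 and 34.7 CPM in F livers (2.90 ± 0.55, adjusted p = 0.000517), and there CR 3 was the highest library. Nqo1, a common marker of NRF2, had 17.8, 26.9 and 10.6 CPM in CR livers, against 10.2, 9.43 and 10 CPM in F livers (0.90 ± 0.39, adjusted p = 0.112), did not overlap and was not called. Members of the transferase families share sequence, so reads may be split among them. The antioxidant element TGACNNNGC lay in the windows of 5 of 17 targets (29.4%), against 1770 of 10604 tested genes (16.7%). In the other lists searched its share ran from none of the sterol sensing and uptake genes to 4 of 13 gluconeogenic genes (30.8%). Its one match upstream of the start of a called NRF2 target was in Gclm, the modifier subunit of glutathione synthesis, which had 317, 281 and 231 CPM in CR livers, against 158, 188 and 177 CPM in F livers (0.66 ± 0.16, adjusted p = 0.00526). The stretch at chr3:122245383-122245471, plus strand holds the match on the other strand, in capitals.
Gclm: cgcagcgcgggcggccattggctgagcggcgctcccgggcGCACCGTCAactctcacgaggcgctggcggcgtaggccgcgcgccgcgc

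Retinoid metabolism rose in 8 of 17 tested genes and fell in none (median 0.55), with 4 higher without CR 3 or F 3 and 5 higher without F 2. Cyp26a1 (chr19:37697798-37701536, plus strand), which breaks down retinoic acid and is induced by it, had 42.9, 38.8 and 26.5 CPM in CR livers, against 1.87, 2.79 and 1.76 CPM in F livers (4.07 ± 0.55, adjusted p = 9.17e-06). Rdh11, a retinal reductase, had 130.0, 112 and 109 CPM in CR livers, against 14.9, 17.9 and 17.2 CPM in F livers (2.81 ± 0.37, adjusted p = 7.27e-06). Rdh9, a dehydrogenase, had 307, 343 and 118 CPM in CR livers, against 68.0, 68.2 and 51.8 CPM in F livers (2.03 ± 0.39, adjusted p = 0.000715). All 3 were apart in every library, and Dhrs3, another retinal reductase, rose by 1.19. Among 24 P450s of drug metabolism 1 rose and 2 fell. Cyp2b10, the marker of the receptor CAR, had 16.6, 18.9 and 10.8 CPM in CR livers, against 135, 94.9 and 138 CPM in F livers (-2.99 ± 0.66, adjusted p = 0.00223). Cyp17a1, a steroid hydroxylase, had 47.4, 38.1 and 3.99 CPM in CR livers, against 390.3, 212 and 347 CPM in F livers (-3.41 ± 0.89, adjusted p = 0.00807). Cyp2e1 and Cyp1a2, pericentral enzymes, were at -0.25 and 0.73 and were not called.

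Among sulfotransferases, the large folds of 2 Sult2a genes came with wide CR groups. Sult2a3 (chr7:14067446-14123044, minus strand) had 44.7, 71.4 and 2.43 CPM in CR livers, against 0.854, 0 and 0.427 CPM in F livers (6.50 ± 1.51, adjusted p = 0.00335), and Sult2a5 (chr7:13623967-13670807, plus strand) had 32.3, 70.5 and 5.28 CPM in CR livers, against 2.83, 0 and 0.534 CPM in F livers (4.99 ± 1.14, adjusted p = 0.00303). CR 3 was far below CR 1 and CR 2 for both, AL 2 was far below the other AL livers (21.0, 0.0948 and 18.1 CPM for Sult2a3), and the copies of the Sult2a cluster share sequence. The log2 fold change of Sult2a3 was 5.76 with adjusted p = 0.013 without CR 2 and 7.48 with adjusted p = 0.0178 without F 1, and that of Sult2a5 was 4.05 with adjusted p = 0.0187 without CR 2 and 7.03 with adjusted p = 0.00529 without F 1. In the list of 22 sulfo- and glucuronosyltransferases 2 rose and 3 fell, with 1 higher and 1 lower without CR 1, CR 2 or F 2. Carboxylesterases and flavin monooxygenases rose in 6 of 18 and fell in 1, with 3 higher and 1 lower without F 2 or F 3.

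Receptors for hormones changed in 6 of 19 tested genes, 2 higher and 4 lower. The adrenergic receptors went opposite ways. Adra1b, the main alpha-1 receptor of rodent liver, had 65.1, 52.4 and 96.6 CPM in CR livers, against 4.64, 16.6 and 14.8 CPM in F livers (2.57 ± 0.34, adjusted p = 7.55e-06). Adra2a (chr19:54044151-54048982, plus strand), an alpha-2 receptor, had no count in CR or AL livers, against 1.28, 4.93 and 8.87 CPM in F livers, which is at least 126-fold lower in CR livers with a floor of 3 counts over the group (adjusted p = 0.00135). Lepr, the leptin receptor, had 18.7, 8.55 and 5.59 CPM in CR livers, against 122, 45.5 and 108 CPM in F livers (-3.07 ± 0.67, adjusted p = 0.00211, and -3.70 with adjusted p = 0.00257 without CR 1). Fgfr4, the receptor of the gut hormone FGF15, had 60.2, 52.6 and 46.1 CPM in CR livers, against 19.7, 28.3 and 26.9 CPM in F livers (1.09 ± 0.26, adjusted p = 0.00438). None of the 4 overlapped. Among 26 nuclear receptors 4 rose and 2 fell. Nr2f6, an orphan receptor, had 134, 173 and 131 CPM in CR livers, against 47.0, 76.5 and 61.5 CPM in F livers (1.24 ± 0.22, adjusted p = 0.000272). Nr4a1, an early response gene, had 1.27, 0.435 and 1.44 CPM in CR livers, against 7.58, 9.32 and 7.64 CPM in F livers (-2.95 ± 0.77, adjusted p = 0.00821).

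**Figure D4:**
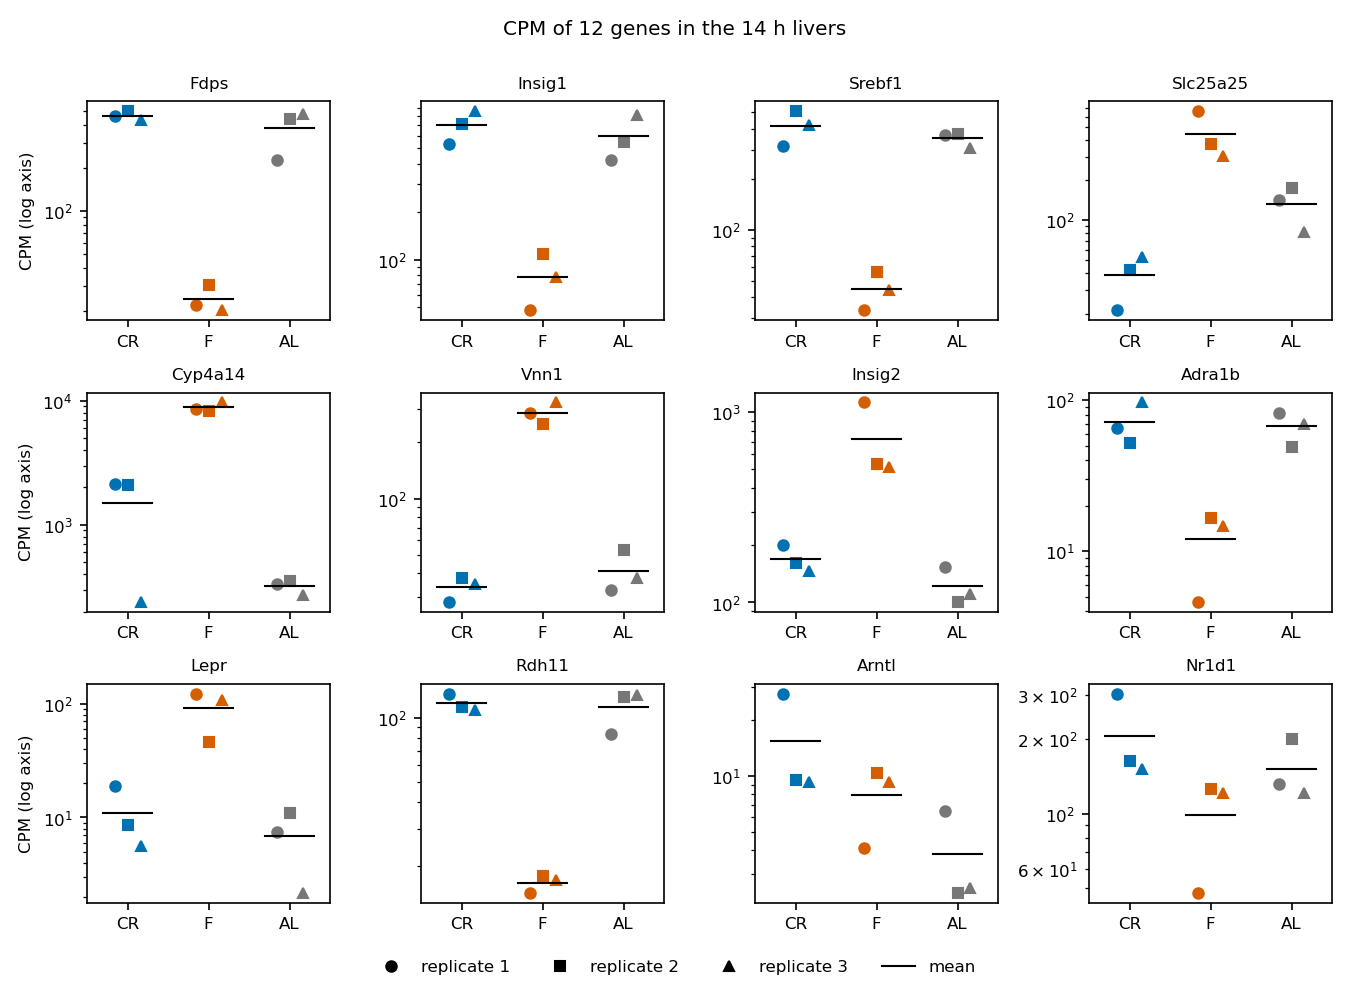
CPM of 12 genes in each CR, F and AL library (log axis), 1 panel a gene, with a bar at the group mean. Fdps, Insig1, Srebf1, Adra1b and Rdh11 lie above all F libraries in all CR libraries, and Slc25a25, Insig2, Vnn1 and Lepr lie below them.

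The growth hormone axis was called at about the share of all genes. Of 12 tested genes 2 rose and none fell, beside 17.1% of all tested genes called in either direction, with 4 higher and 1 lower without CR 1, none called without CR 3 and 1 higher and 0 lower without F 1 or F 3. Igf1 had 322, 373 and 742 CPM in CR livers, against 452, 439.7 and 390.2 CPM in F livers (0.16 ± 0.27, adjusted p = 0.726), and CR 3 was the highest of all 6. Igfbp1, which fasting induces, had 186, 33.5 and 29.5 CPM in CR livers, against 1097, 114 and 211 CPM in F livers (-2.51 ± 0.93, adjusted p = 0.06), with F 1 far above the rest. Igfals, which carries IGF in blood, had 78.0, 111 and 159.5 CPM in CR livers, against 38.3, 69.1 and 50.6 CPM in F livers (1.14 ± 0.30, adjusted p = 0.00962), a call lost without CR 3 or F 1 (adjusted p = 0.0728 to 0.0818). Secreted regulators rose in 2 of 19 and fell in 4, with 0 higher and 3 lower without CR 3. Inhbe, an activin subunit of the liver, had 4.67, 13 and 40.8 CPM in CR livers, against 62.4, 102 and 119 CPM in F livers (-2.28 ± 0.59, adjusted p = 0.00766, and -3.42 with adjusted p = 0.000994 without CR 3). Angptl8, which feeding induces, had 15.3, 35.6 and 102 CPM in CR livers, against 1.55, 12.9 and 15.0 CPM in F livers (2.38 ± 0.72, adjusted p = 0.0206), a call lost without CR 3 or F 1 (adjusted p = 0.111 to 0.209). Of 19 sex-biased liver genes 4 rose and 2 fell, with 1 higher and 2 lower without F 3. Hao2, an oxidase of hydroxy acids, had 12.0, 25.4 and 60.6 CPM in CR livers, against 2.61, 2.58 and 2.40 CPM in F livers (3.69 ± 0.75, adjusted p = 0.00105, and 2.88 with adjusted p = 0.0109 without CR 3), and AL livers were split at 55.3, 1.23 and 54.6 CPM.

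The lists of stress programmes differed in how many genes fell. Of 16 glucocorticoid targets 7 fell and none rose (median -1.11), with 4 lower without CR 2 or F 3 and 3 lower without CR 3 or F 1. Dusp1, a phosphatase of MAP kinases, had 12.0, 10.9 and 9.47 CPM in CR livers, against 36.0, 54.3 and 53.4 CPM in F livers (-2.15 ± 0.32, adjusted p = 3.95e-05), and Gadd45g (chr13:51846678-51848468, plus strand), a growth arrest gene, had 4.33, 4.23 and 5.13 CPM in CR livers, against 108, 45.3 and 36.5 CPM in F livers (-3.79 ± 0.86, adjusted p = 0.00269, and -3.16 with adjusted p = 0.0212 without F 1). Fkbp5 and Tsc22d3, common markers of the receptor, were not called, with Tsc22d3 at 33.1, 48.6 and 53.9 CPM in CR livers, against 86.2, 31.6 and 36.7 CPM in F livers (-0.19 ± 0.41, adjusted p = 0.801). Of 14 p53 and growth arrest genes 6 fell and 1 rose, with 1 higher and 2 lower without CR 2 and 0 higher and 3 lower without F 1. Cdkn1a (chr17:29090976-29100727, plus strand), the cell cycle inhibitor p21, had 1.49, 1.5 and 4.64 CPM in CR livers, against 55.7, 29.3 and 78.2 CPM in F livers (-4.41 ± 0.96, adjusted p = 0.00211, and -5.18 with adjusted p = 0.00512 without CR 3), with the highest CR liver far below the lowest F liver. Cytosolic heat shock genes fell in 6 of 17 and rose in none, with 3 lower without CR 1, 1 lower without CR 3 and 2 lower without F 3. Hspa8, the constitutive chaperone, had 498, 509.6 and 811 CPM in CR livers, against 2154, 1526 and 1865 CPM in F livers (-1.61 ± 0.41, adjusted p = 0.00698), but AL livers stood at 2890, 782 and 1140 CPM. For 5 of the 6 called heat shock genes the AL mean was nearer to the F than to the CR mean. The unfolded protein response gave no call in 20 genes, with 1 lower without CR 1, and Hspa5 had 575, 515 and 449.7 CPM in CR livers, against 595, 961 and 1165 CPM in F livers (-0.82 ± 0.43, adjusted p = 0.195). The ATF4 list had 2 of 17 genes higher and 1, Fgf21, lower.

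Genes of cytosolic ribosomal proteins were higher in CR livers, with far fewer calls without CR 3. Of 35 tested, 27 rose and none fell (median 1.05), with 7 higher without CR 3, 12 higher without F 2 and 11 higher without F 3, where the median without CR 3 was 0.59. With the length trend of each library removed 11 rose. Rplp1, of the ribosomal stalk, had 221, 208 and 478 CPM in CR livers, against 97.5, 87.4 and 68.3 CPM in F livers (1.84 ± 0.36, adjusted p = 0.000818). Rpl13a had 258, 223 and 911 CPM in CR livers, against 172, 147 and 129 CPM in F livers (1.64 ± 0.50, adjusted p = 0.0216) but 0.69 with adjusted p = 0.361 without CR 3. AL livers were as uneven for Rpl13a, at 572, 249 and 683 CPM. Transcripts of this kind are short, and the part of length in the result was not tested beyond that fit. Oxidative phosphorylation rose in 7 of 38 genes (median 0.46), with 4 higher without F 3, and in 3 with the length trend removed, where 1 fell. Sdhc, a subunit of complex II, had 197, 202 and 186 CPM in CR livers, against 119, 106 and 106 CPM in F livers (0.83 ± 0.18, adjusted p = 0.00223). Cox5a, of complex IV, had 126, 134 and 123 CPM in CR livers, against 66.5, 67.7 and 48.0 CPM in F livers (1.07 ± 0.24, adjusted p = 0.0024). Polr1a, the large subunit of RNA polymerase I, fell by 1.09, 1 of 3 lower among 24 ribosome biogenesis genes, where 1 rose, with 1 higher and 1 lower without CR 3 and 0 higher and 1 lower without F 1.

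The immune lists stand beside 17.1% of all tested genes called in either direction, 9.10% higher and 7.97% lower. With all libraries, the interferon list fell and the acute phase list rose in a larger share than that, by counts that moved with single libraries. Interferon-responsive genes fell in 4 of 20 tested members and rose in none, with 2 lower without CR 1 or F 3 and 8 lower without CR 3. Usp18, which removes ISG15, had 5.90, 5.58 and 8.67 CPM in CR livers, against 27.2, 21.2 and 36.0 CPM in F livers (-2.06 ± 0.36, adjusted p = 0.000213). Rsad2, the antiviral viperin, had 3.06, 3.96 and 7.15 CPM in CR livers, against 13.1, 18.6 and 25.7 CPM in F livers (-2.01 ± 0.40, adjusted p = 0.00079). Neither overlapped, and CR 3 was the highest CR library for both. Acute phase proteins rose in 4 of 18 and fell in none, with 2 higher without F 1. In the interferon and the acute phase list alike, 2 calls held in every fit that left out 1 library. Apcs, the serum amyloid P component, had 180.4, 166 and 239 CPM in CR livers, against 53.6, 53.8 and 46.1 CPM in F livers (1.93 ± 0.28, adjusted p = 2.5e-05). Orm2, an orosomucoid, had 75.5, 65.7 and 18.2 CPM in CR livers, against 6.56, 6.25 and 7.32 CPM in F livers (2.98 ± 0.59, adjusted p = 0.000879). Hamp, the iron hormone hepcidin, overlapped with 406, 1336 and 824 CPM in CR livers, against 1360, 220.3 and 329 CPM in F livers (0.43 ± 0.66, adjusted p = 0.706). Mt1, a metallothionein, had 121, 48.1 and 112 CPM in CR livers, against 637, 216 and 587 CPM in F livers (-2.36 ± 0.81, adjusted p = 0.0426), a call lost without CR 1, CR 2, CR 3, F 1 or F 3 (adjusted p = 0.0666 to 0.153).

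Markers of other liver cells moved little. Of 14 sinusoidal endothelial markers 2 fell, with 1 lower without CR 3. Lyve1, a hyaluronan receptor of these cells, had 3.82, 3.68 and 1.29 CPM in CR livers, against 33.1, 13.2 and 17.7 CPM in F livers (-2.86 ± 0.62, adjusted p = 0.00205), while Stab2 and Clec4g, also of these cells, were at -0.31 and -0.26 and were not called. None of 12 Kupffer cell, 14 stellate cell, 10 lymphocyte, 6 neutrophil, 7 erythroid or 6 muscle markers was called with all libraries. The median log2 fold changes were -0.35, 0.03, -0.14, 0.33, -0.49 and 0.66. Without F 1, 2 stellate markers were higher, and without CR 3, 1 lymphocyte marker was lower. The cholangiocyte list had 1 of 7 higher, Krt19, and the adipocyte list 1 of 5 higher, Adrb3, while the adipocyte gene Lep had no count in any of the 6 libraries. Both calls were lost without single libraries, for Krt19 without CR 1, CR 2, F 2 or F 3 (adjusted p = 0.0688 to 0.193) and for Adrb3 without CR 3, F 1 or F 3 (adjusted p = 0.156 to 0.277). The 3 called pancreas markers, Amy2a5, Cpa1 and Ctrb1, were lower in CR livers through F 1 and F 3, overlapped, and none was called without CR 1, CR 2, CR 3 or F 1. Pericentral genes had 3 of 17 higher and 2 lower, and periportal genes 1 of 15 lower, with 3 lower without CR 1 and none called without CR 3 or F 1.

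The other lists are given by count, beside 17.1% of all tested genes called in either direction, 9.10% higher and 7.97% lower. Counts near those shares are not read as a change of the programme. Autophagy and lysosome genes fell in 3 of 25 and rose in 1, with 0 higher and 2 lower without CR 2 or F 3, 1 higher and 0 lower without CR 3 and none called without F 1. The mTOR and AMPK list had 3 of 21 higher and 3 lower, with 1 higher and 1 lower without CR 2, 2 higher and 1 lower without CR 3 or F 1 and 1 higher and 2 lower without F 3. Prkab1, a subunit of AMPK, had 32.5, 30.8 and 29.1 CPM in CR livers, against 15.6, 20.1 and 18.8 CPM in F livers (0.76 ± 0.17, adjusted p = 0.00236) and kept its call in all 6 fits. Proteasome genes rose in 2 of 33 and fell in 3, with 1 higher and 0 lower without CR 3 or F 1, 2 higher and 1 lower without F 2 and 1 higher and 1 lower without F 3. Insulin receptor and FOXO target genes fell in 2 of 16, with 1 lower without CR 2 and none called without CR 3 or F 1, and Irs2, a signalling adaptor, had 74.4, 32.7 and 19.7 CPM in CR livers, against 129, 32.2 and 41.4 CPM in F livers (-0.68 ± 0.55, adjusted p = 0.436). Cell cycle genes rose in 2 of 22, with none called without CR 2 and 1 higher and 0 lower without F 1 or F 2. Splicing factors fell in 1 of 25, with none called without CR 2, F 1 or F 3 and 2 lower without CR 3. Coagulation and complement genes rose in 3 of 25 and fell in 1, with none called without CR 2 or F 3, 2 higher and 0 lower without CR 3 and 1 higher and 0 lower without F 1. Iron genes rose in 2 of 13, with 1 higher without CR 1 or F 3 and none called without CR 2 or F 1. The pyruvate dehydrogenase list had 3 of 13 higher and 1 lower, and phospholipid synthesis 2 of 15 higher, with 1 higher without CR 3.

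Several of the largest changes belong to none of these programmes. Chrna4 (chr2:181018380-181043546, minus strand), a subunit of the nicotinic acetylcholine receptor, had 9.04, 2.69 and 38.3 CPM in CR livers, against 0.0534, 0.110 and 0 CPM in F livers (8.13 ± 1.77, adjusted p = 0.00203). The F livers held 3 counts in all, and the ratio of summed counts was 319, with a 95% exact interval of 109 to 1547 that covers counting error only. CR 3 was the highest library, and the log2 fold change was 6.62 with adjusted p = 0.0165 without CR 3 and 9.01 with adjusted p = 0.00966 without F 2. Aqp8 (chr7:123462291-123468004, plus strand), a water channel, had 168, 146 and 346 CPM in CR livers, against 9.07, 18.1 and 16.7 CPM in F livers (3.91 ± 0.67, adjusted p = 0.00021). Cntnap1 (chr11:101170523-101190724, plus strand), a contactin partner of nerve, had 0.679, 0.673 and 1.25 CPM in CR livers, against 25.2, 22.0 and 35.1 CPM in F livers (-4.97 ± 0.65, adjusted p = 5.67e-06). The 3 F livers stood together, more than 10 times above each CR liver. Peg3 (chr7:6703892-6730431, minus strand), an imprinted zinc finger gene, had 2.93, 0.870 and 3.84 CPM in CR livers, against 24.9, 39.2 and 51.2 CPM in F livers (-3.91 ± 0.57, adjusted p = 2.76e-05). Cgref1 (chr5:30933143-30945591, minus strand), a calcium-binding secreted protein, had 0.212, 0.158 and 0.0380 CPM in CR livers, against 11.1, 2.79 and 9.19 CPM in F livers (-5.78 ± 1.00, adjusted p = 0.000229), and Npnt (chr3:132881745-132950291, minus strand), the matrix protein nephronectin, had 0.849, 1.15 and 0.114 CPM in CR livers, against 5.6, 9.32 and 9.51 CPM in F livers (-3.53 ± 0.69, adjusted p = 0.000716). All of these kept their call in the 6 fits that left out 1 library. None overlapped between groups, but the rule that named them required this.

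Levels in AL livers lay mostly on the side of CR livers. The AL mean was nearer to the CR than to the F mean for 1141 (90.9%) of the genes called higher and for 984 (89.5%) of those called lower, with 0.5 CPM added before taking logs. Because CR 3 itself resembled AL livers, this is a description of these libraries and no test was made. Among the exceptions were the heat shock genes above, Oat, at 1649, 1164 and 1620 CPM in AL livers, Slc25a25, at 143, 175 and 82.3 CPM, and Bhlhe41, at 1.18, 3.65 and 1.58 CPM.

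Whether the difference between CR and F livers at 14 h was the same at other times was tested as the interaction in the same fit. Against 6 h, with 3 CR and 3 F livers, the difference itself differed for 125 genes (0.907%), and against 22 h, with 4 CR and 3 F livers, for 12 genes (0.0870%). Both use the 14 h libraries again, so neither adds a fresh measurement of the 14 h difference. The 6 h count moved by more than 1.5 times in each of the 12 fits that left out 1 library. It was 21, 65 and 16 without CR 1, CR 2 and CR 3, and 4, 59 and 10 without F 1, F 2 and F 3. Without the 6 h libraries in turn it was 5, 8 and 303 for CR livers and 4, 12 and 1 for F livers. The 22 h count was 22 without F 2 and 5 without F 3, 69 and 7 without replicates 3 and 4 of the CR livers at 22 h, and 4 without replicate 3 of the F livers at 22 h. A gene called at only 1 of the times outside these sets is not shown to differ between times. Dsg1c, a desmosomal cadherin, had 27.2, 19.4 and 8.67 CPM in CR livers, against 1.76, 0.493 and 1.01 CPM in F livers at 14 h, and 7.02, 12.0 and 4.99 CPM in CR livers, against 10.2, 13.2 and 10.5 CPM in F livers at 6 h. The fold change at 14 h minus that at 6 h was 4.57 ± 0.71 (adjusted p = 0.00453), called in all 12 fits that left out 1 library. For Cntnap1 the F livers were at 2.60, 2.61 and 1.64 CPM at 6 h, beside 2.15, 1.62 and 2.35 CPM in CR livers, so the high F level was seen at 14 h and not at 6 h (-4.81 ± 0.85, adjusted p = 0.0152, called in 11 of 12).

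Against 22 h, Slc25a25 gave the largest of the 8 changes that were reported. Its CR livers had 334, 369, 211 and 579 CPM at 22 h, against 576, 428 and 222 CPM in F livers, so the groups overlapped then, unlike at 14 h (-3.38 ± 0.57, adjusted p = 0.00712, called in all 13 fits). Dusp1 showed a like pattern, with 52.2, 58.5, 50.9 and 84.2 CPM in CR livers and 60.7, 48.0 and 34.9 CPM in F livers at 22 h (-2.51 ± 0.43, adjusted p = 0.00712, called in 12 of 13). Tob1, an antiproliferative gene, had 96.4, 102 and 105 CPM in CR livers, against 192, 193 and 171 CPM in F livers at 14 h, and 230.5, 231, 185 and 355 CPM in CR livers, against 165, 149.6 and 138 CPM in F livers at 22 h. Its direction turned between the times (-1.60 ± 0.23, adjusted p = 0.000785, called in all 13). Sdr42e1, a short-chain dehydrogenase family member, overlapped at 14 h and was lower in each CR liver at 22 h, with 52.8, 55.4, 59.0 and 40.8 CPM in CR livers, against 123, 114 and 118 CPM in F livers (1.37 ± 0.24, adjusted p = 0.00712, called in 12 of 13).

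**Figure D5:**
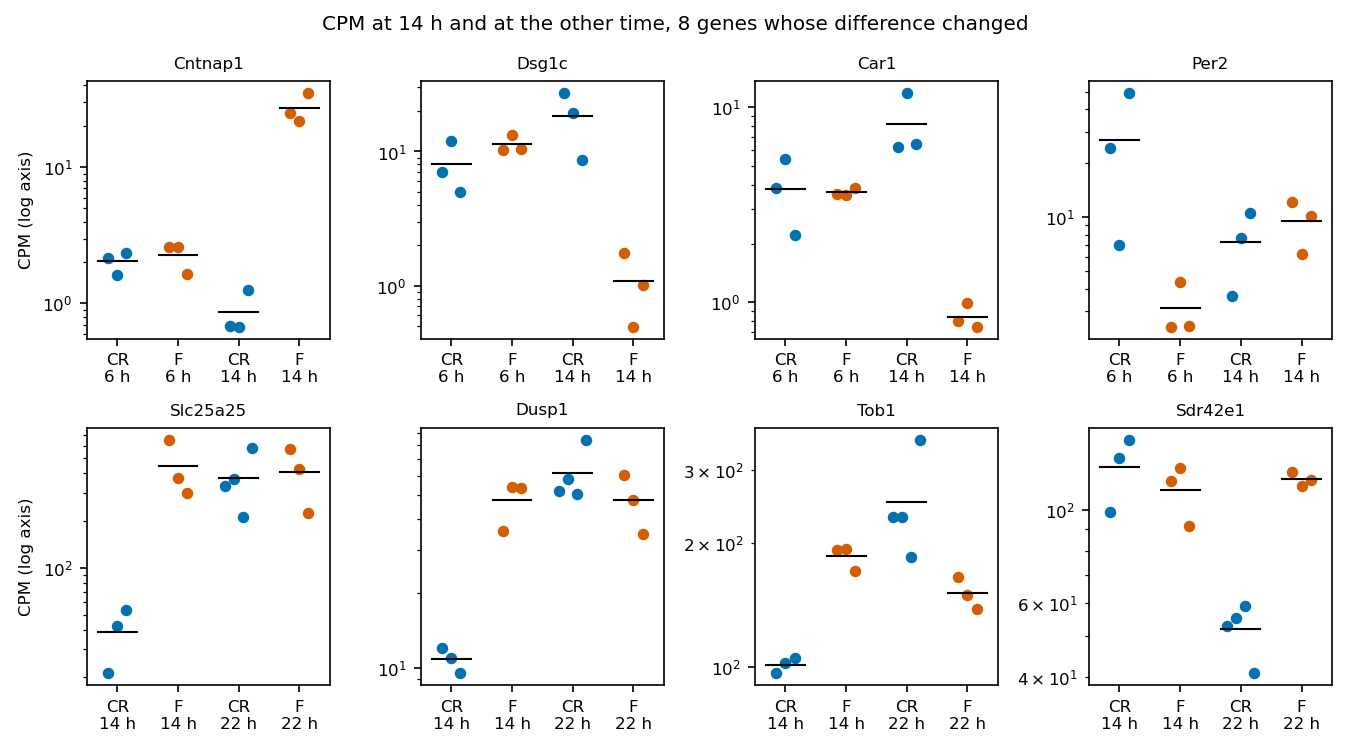
CPM in CR and F livers (log axis) of Cntnap1, Dsg1c, Car1 and Per2 at 6 h and 14 h, and of Slc25a25, Dusp1, Tob1 and Sdr42e1 at 14 h and 22 h, with a bar at the group mean. Cntnap1 and Dsg1c differ between CR and F livers at 14 h and lie together at 6 h, and Slc25a25 and Dusp1 differ at 14 h and lie together at 22 h.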

How the data were processed

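RNA from 30 mg of liver was sequenced as 150-base pairs on a NovaSeq 6000 from a polyA library that does not keep strand, per the labels' protocols. Reads were mapped with Bowtie (up to 2 mismatches) to Ensembl GRCm38 protein-coding genes and the authors deposited expected counts from RSEM 1.2.3, and a second table of TPM rescaled with EBSeq, used here as a signal with no fixed total. Without strand, reads of a gene and of an antisense neighbour cannot be told apart, and RSEM shares reads among near-identical copies. Expected counts were rounded and fitted with edgeR 4.0.16 (R 4.3.3): filterByExpr, TMM scaling, 1 mean for each of 13 groups over all 38 samples (25 residual degrees of freedom), the quasi-likelihood F test, and Benjamini-Hochberg adjustment over all 13786 genes tested, called at 0.05. CPM are counts scaled to the TMM-adjusted library total. Coordinates are from GENCODE vM21 (GRCm38), which matched 21855 genes (99.5%). In 26 entries the deposited name had turned into a date, and the symbol was taken from the transcript column. Named were the 12 largest rises and 12 largest falls among called genes that reached a mean of 5 CPM in CR or F livers without overlap, genes marked as anchors in the lists, up to 6 called members a list, and 8 genes for each interaction. Other genes were named after their values were seen. Some genes that the rule takes are not reported here. The 59 gene lists, 11 marker lists and all members were chosen with earlier results of these data known. Alternatives were DESeq2 1.42.0, its size factors, no filter, only the compared samples, a replicate block, removal of each library's trend with length, limma 3.58.1 on log2 of the deposited rescaled TPM signal, and leaving out each sample.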

Additional observations from a re-analysis of the deposited data

Results flagged for a closer look

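The CR against F difference at 14 h differed from that at 6 h or 22 h, by the interaction test, for the 16 genes below. They are the 8 with the largest absolute difference for each time, among called genes with a mean of 5 CPM in a compared group. Unnamed gene models were left out. Values are the log2 fold change at 14 h minus that at the other time. Against 6 h the difference was 4.57 for Dsg1c and 3.22 for Car1, a carbonic anhydrase of red cells and gut, called in 12 and 6 of the 12 fits that left out 1 library. It was -4.81 for Cntnap1, called in 11 of them. Chac1, a glutathione-degrading enzyme, gave 4.31 and Agap2, a GTPase-activating protein, gave -3.95, each called in 2 of the 12. Socs2, a growth hormone-induced inhibitor, gave 3.31, called in 3, with 33.9, 22.7 and 109.7 CPM in CR livers, against 24.9, 14.6 and 24.2 CPM in F livers at 14 h. The clock gene Per2 gave -3.50 and was called in 0 of the 12, with 24.2, 7.02 and 49.1 CPM in CR livers, against 2.45, 4.38 and 2.48 CPM in F livers at 6 h. The pancreas amylase Amy2a5 gave -18.51 and was called in 1 of the 12, with 0, 0.0396 and 0 CPM in CR livers, against 28.8, 0 and 1.28 CPM in F livers at 14 h, and 0.0447, 0 and 11.8 CPM in CR livers at 6 h.

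Against 22 h the difference was -3.38 for Slc25a25 and -1.60 for Tob1, called in all 13 fits that left out 1 library. It was -2.51 for Dusp1 and 1.37 for Sdr42e1, called in 12 of 13. Slc25a22 gave -1.58, called in 9. Slc41a2, a magnesium transporter, gave 3.32, called in 6, with 51.4, 22.5 and 21.5 CPM in CR livers, against 1.87, 5.81 and 4.65 CPM in F livers at 14 h. Snrnp48, of the minor spliceosome, gave -1.64, called in 6, and Txnip gave -2.07, called in 5.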

How the results depend on the processing

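Of the counts of genes called between CR and F livers, 2354 with all libraries, those of 7 alternatives lay within 1.5 times of it, from 2019 with length trends removed to 2688 with DESeq2. Fitting only the compared samples gave 1357. Leaving out 1 library gave 1282 (without F 1) to 2241 (without CR 1). The interaction with 6 h gave 125 genes, against 326 with DESeq2, 54 with no filter and 80 with the rescaled TPM and no minimum, and 1 to 303 when 1 library was left out. The interaction with 22 h gave 12 genes, against 74 with DESeq2, 1 with only the compared samples, and 4 to 69 when 1 library was left out. The cause of these shifts was not tested. Same-numbered CR and F samples correlated at -0.00786, -0.0528 and -0.00322 in their deviations from group means. These values show no pairing but cannot exclude it, and the numbers were not used to pair the samples in the main fit. The replicate block was fitted to only the compared samples. Its counts were 1028, 158 and 3, against 1357, 96 and 1 for those samples without the block.

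For the 97 genes of the naming rule, 1378 of 1455 log2 fold changes under an alternative kept direction and side of the threshold, 44 passed it newly, 33 no longer passed it and none reversed. Of 885 list counts, 708 stayed within 1.5 times and 177 did not. The call of 22 of the 24 genes that the rule takes for their size held in all 6 fits that left out 1 library, Pnpla3 and Ppp1r3g being the exceptions.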
